A study of Homo sapiens with 4 samples.

Results

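The 1193 regions described here had an open-chromatin peak in H1 human embryonic stem cells given Wnt3a and no peak in cells given Activin A. They were found by merging overlapping or book-ended peaks of 4 deposited lists into 87966 regions, of which 19801 had a Wnt3a peak. The members are the 6.02% of those Wnt3a regions without an Activin A peak, whatever the other lists held. The members were thus chosen by the presence and absence of peaks in the Wnt3a and Activin A lists, and everything that concerns the Wnt3a and Activin A lists is given as a description. Scores and peaks of the control and combined lists were not used to choose members, except that their peaks could join a Wnt3a peak to an Activin A peak in the merging. Of the regions left out, 37 had no direct overlap between those peaks, and merging the Wnt3a and Activin A lists alone gave 1250 members.

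H1 is a long-used line of human embryonic stem cells, here cultured on Matrigel and free of feeder cells. The study profiled it by ATAC-seq, in which a transposase places sequencing adapters into accessible DNA. There were 4 groups with 1 library each: control, Activin A at 25 ng/ml for 6 h, Wnt3a at 25 ng/ml for 6 h, and both ligands at 25 ng/ml each for 6 h. Control cells were grown in parallel and stayed in the N2B27 growth medium with basic fibroblast growth factor, and all treated cells were in a B27 medium for which N2 and that factor are not listed. Wnt3a and Activin A libraries therefore shared their medium, whereas any difference from control carries the change of medium too. With 1 library per group there is no replicate error and no test. The 95% intervals given below are exact (Clopper-Pearson) and cover counting error only.

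Wnt3a binds Frizzled and LRP receptors and stabilises beta-catenin, which enters the nucleus and acts with TCF and LEF factors at enhancers. Activin A signals through SMAD2 and SMAD3. Used together, the ligands start the differentiation of pluripotent cells towards mesendoderm, from which mesoderm and endoderm arise.

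The Wnt3a library was the shallowest. Each peak carries the authors' score, and nearly every score equalled, within 0.05, the score that a whole number of reads gives under 1 Poisson background mean per library. This held for 99.91% of Wnt3a peaks and for 99.92% to 99.97% of peaks in the other lists. The background means were 0.353 reads per 400 bases after Wnt3a, 0.794 after Activin A, 0.886 with both ligands and 0.862 in control. By that measure the Wnt3a library had 0.445 times the depth of the Activin A library, while the combined library had 1.12 times and the control library 1.08 times. The read numbers below were recovered in this way, on the assumption that the score is the chance of that many reads or more. If the caller left the observed number out of the tail, each is lower by 1.

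Members were weak peaks. Their Wnt3a scores ran from 54.4 to 158, with a median of 65.3 and a middle range of 60.8 to 72.1. The Wnt3a regions that also had an Activin A peak had a median score of 90.02. In reads, 752 of the 1193 members (63.0%) had 7, the lowest number behind any Wnt3a peak, 265 had 8, 99 had 9, 71 had 10 to 12 and 6 had 13 or more. The share of Wnt3a regions that were members fell along the same steps. It was 15.5% (14.5 to 16.6) of the 4850 regions with 7 reads, 8.76% (7.78 to 9.83) at 8 reads, 4.84% (3.95 to 5.86) at 9 and 0.145% (0.0531 to 0.315) at 13 to 20. None of the 1569 regions with more than 20 reads was a member.

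Most of the 1193 members were in no other list, which did not hold under some stricter settings. By the rule used here 821 (68.8%, 66.1 to 71.4) had neither a combined nor a control peak, and 281 (23.6%, 21.2 to 26.1) had a combined peak only. Another 56 (4.69%, 3.57 to 6.05) had a combined and a control peak, so that Activin A was the only list without them, and 35 (2.93%, 2.05 to 4.06) had a control peak only. Of all 19801 Wnt3a regions, 1652 (8.34%) had neither peak, 4894 a combined peak only, 183 a control peak only and 13072 (66.0%) both. The share of members with a combined peak only was thus near the background. The members found after Wnt3a alone were 3391 of 7623 when an overlap of 50% of each peak was required, and 36 of 98 and 0 of 6 with Wnt3a peaks in the top 50% and top 25% of scores. The median Wnt3a score was 64.2 in the members found after Wnt3a alone, 67.7 with the combined peak only, 67.3 with the control peak only and 70.8 with both.

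The combined list held 337 members (28.2%, 25.7 to 30.9), against a background of 90.7% for all Wnt3a regions. The control list held 91 members (7.63%, 6.19 to 9.28), against a background of 66.9%. Weak peaks are missing from other lists more often, so the same shares were also taken among weak peaks. Among regions at or below the median Wnt3a score, where the background of regions without an Activin A peak was 11.5%, 282 of 1095 members (25.8%, 23.2 to 28.5) had a combined peak. The share was 89.96% (89.3 to 90.6) of the 8467 regions with an Activin A peak. For control the shares were 6.39% (5.02 to 8.01) and 53.3% (52.2 to 54.3). Within this range the members still had lower Wnt3a scores, with a median of 64.3 against 68.6, and the plot by decile of Wnt3a score compares narrower ranges. The median enrichment over background in the Wnt3a library was 15.3-fold over all members, and was not taken for the 1095 alone. It was 15.4-fold in the low-scoring regions with an Activin A peak. Strength in other libraries was not matched, as those low-scoring regions had a median of 27 Activin A reads and 22 combined reads. They were chosen for a peak in another library and the members for lacking one. Lower shares in members are therefore in part set by the rule.

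**Figure D1:**
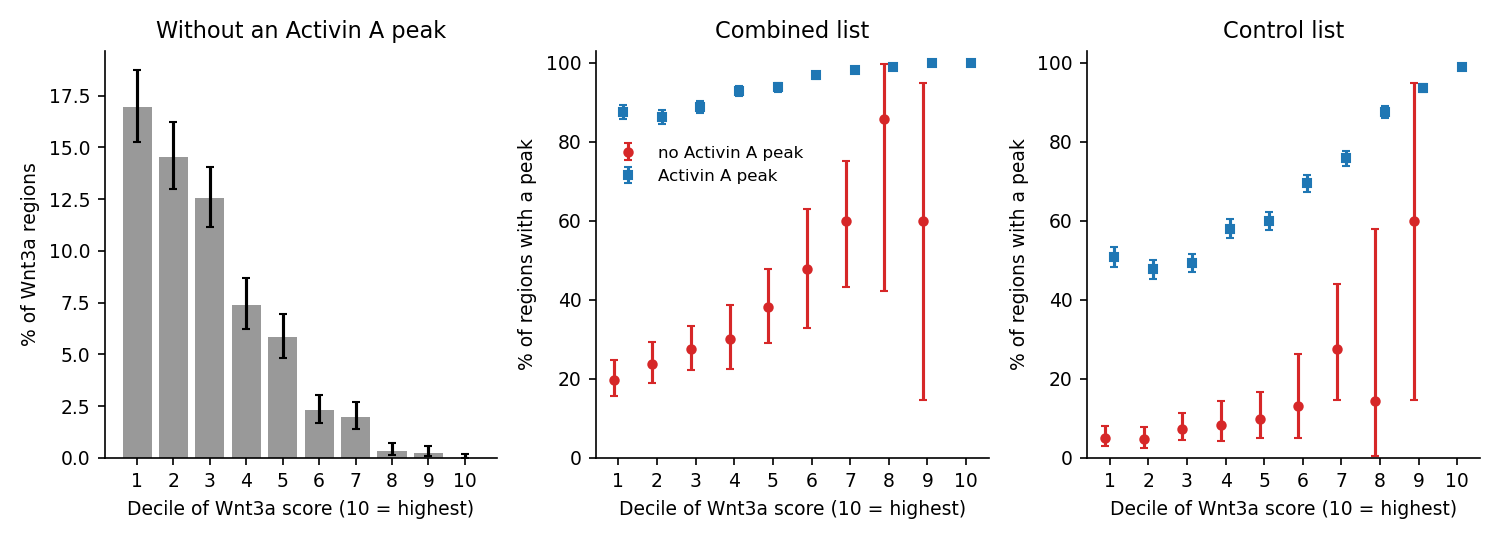
Left, the percent of Wnt3a regions without an Activin A peak in each decile of Wnt3a score; middle and right, the percent of regions with a combined or a control peak, for members (circles) and for Wnt3a regions with an Activin A peak (squares). Bars are exact 95% intervals from 1 library per group; in the lowest decile 19.8% of members and 87.5% of the other regions had a combined peak.

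Members with more Wnt3a reads were found more often with both ligands. A combined peak was present for 170 of the 752 members with 7 reads (22.6%, 19.7 to 25.8), 84 of 265 with 8 (31.7%, 26.1 to 37.7), 41 of 99 with 9 (41.4%, 31.6 to 51.8) and 37 of 71 with 10 to 12 (52.1%, 39.9 to 64.1). Of the 6 members with 13 or more reads, 5 had one. A control peak was present for 4.79% (3.38 to 6.57) at 7 reads and 18.3% (10.1 to 29.3) at 10 to 12. At each of these steps the regions with an Activin A peak had higher shares, 86.6% and 97.9% for the combined list at 7 and at 10 to 12 reads. Those regions were chosen for a peak in another library, so their higher shares are in part set by the rule.

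The Activin A library was the deeper of the pair that defined the members. Over the width of the members' Wnt3a peaks the Activin A list needed 8 to 12 reads, with a median of 9, to reach the lowest score in the lists. Scaled by the depth of the libraries, the Wnt3a reads of the members correspond to 15.7 to 33.7 Activin A reads. Every Wnt3a peak of these widths would pass after scaling, because the lowest number in the list already scales to 15.7, so this says nothing particular about the members. Counting error is wide at these numbers: 7 reads have a 95% Poisson interval of 2.81 to 14.4, or 6.32 to 32.4 after scaling, which includes numbers too low for a peak. The lower limit reached the needed number in 144 members (12.1%), namely 60 found after Wnt3a alone, 57 with the combined peak only, 9 with the control peak only and 18 with both. The intervals do not allow for the choice of these regions among 19801, nor for counting error in the Activin A library. At 9 Wnt3a reads the scaled lower limit was 9.25, little above the 8 or 9 reads needed in those of the 144. The same share was not taken over all Wnt3a regions, so the 12.1% has no background. Low-scoring Wnt3a regions that did have an Activin A peak had a median of 27 Activin A reads, with a middle range of 18 to 40.

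These 144 members had 9 to 15 Wnt3a reads. Of them 75 (52.1%, 43.6 to 60.5) had a combined peak and 27 (18.8%, 12.7 to 26.1) a control peak. The background over all Wnt3a regions was 90.7% and 66.9%. Regions with an Activin A peak had shares of 95.1% and 63.0% at 9 Wnt3a reads, and of 97.9% and 75.8% at 10 to 12. As above, these higher shares are in part set by the rule. The choice of the 144 used the Wnt3a reads, which move with presence in the combined list as shown above.

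The highest-scoring member lay at 55209579 to 55209910 on chromosome X, in band Xp11.21. Its Wnt3a score was 158 from 13 reads in 332 bases, its control score 68.5 from 10 reads, and it had no combined peak. The second, at 52967113 to 52967898 on chromosome 5 (5q11.2), had 15 Wnt3a reads (score 148) and 20 combined reads (score 150), with no control peak and its nearest Activin A peak 109907 bases away. Next came 143857346 to 143857739 on chromosome 2 (2q22.2), with 12 Wnt3a reads, 9 combined reads and 10 control reads. The region at 105888920 to 105889280 on chromosome 5 (5q21.3) had 12 Wnt3a and 9 control reads. A region at 35857441 to 35858029 on chromosome 20 (20q11.23) had 13 Wnt3a and 10 combined reads, and one at 95156811 to 95157181 on chromosome 6 (6q16.1) had 11 Wnt3a, 9 combined and 11 control reads. These 6 were the only members in the top 25% of Wnt3a scores, and each was present in at least 1 of the combined and control lists.

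Places 7 to 10 by Wnt3a score all belonged to regions shared with the combined list and absent from control. They were 12957969 to 12958784 on chromosome 6 (6p24.1) with 13 Wnt3a and 16 combined reads, 44347058 to 44347751 on chromosome 1 (1p34.1) with 12 and 11, 53278409 to 53279107 on chromosome 20 (20q13.2) with 12 and 23, and 156192537 to 156193074 on chromosome 3 (3q25.31) with 11 and 15. The nearest Activin A peak was 2917 bases away for the region in 1p34.1 and 150758 bases away for that in 20q13.2.

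Members found after Wnt3a alone reached lower scores. The highest 3 were 11854353 to 11855067 on chromosome 1 (1p36.22, score 113, 12 reads), 69115886 to 69116485 on chromosome 15 (15q23, score 108, 11 reads) and 104902381 to 104903178 on chromosome 14 (14q32.33, score 108, 12 reads). Their nearest Activin A peaks were 5958, 1996 and 619 bases away. No member of this class was in the top 25% of Wnt3a scores, and 36 of its 821 regions were above the median.

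**Figure D2:**
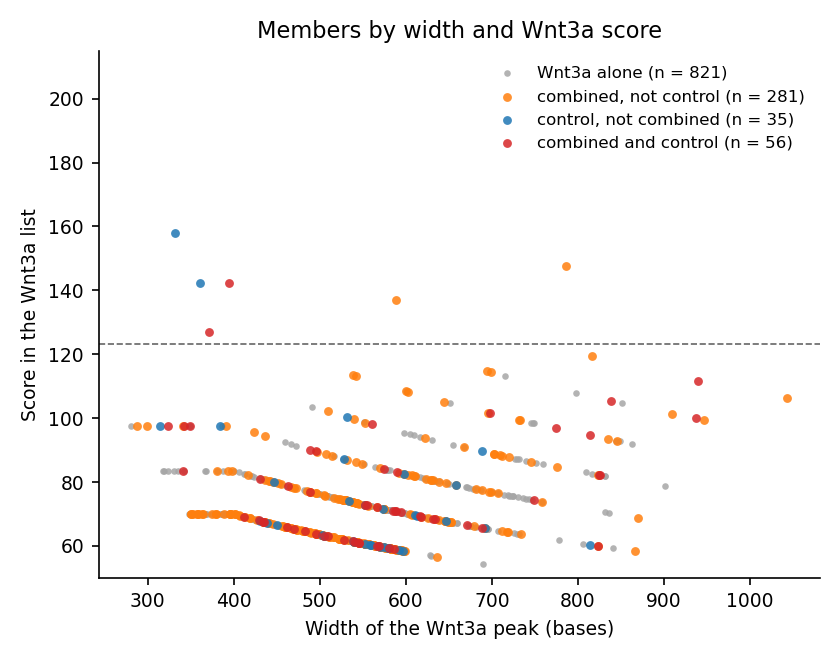
Width of the Wnt3a peak in bases against its Wnt3a score for all 1193 members, coloured by the other lists that held them; the dashed line is the 75th percentile of Wnt3a scores. Points lie on curves because each curve is 1 whole read number, the lowest full curve being 7 reads, and 4 of the 6 members above the line are 332 to 394 bases wide.

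Member peaks were narrow, with a median width of 549 bases (middle range 488 to 590) against 642 bases for Wnt3a regions with an Activin A peak. At or below the median Wnt3a score the widths were 546 and 563 bases, a smaller difference. Members under 400 bases wide numbered 77 (6.45%), against 515 (2.77%) of the Wnt3a regions with an Activin A peak. These shares were not matched for Wnt3a score. Only 98 of the 1193 members were above the median score, whereas 8467 of the 18608 other regions were at or below it. Of the 77 and the 515, 17 and 132 were above it. The narrow members included 4 of the 6 with the highest scores, in Xp11.21, 2q22.2, 5q21.3 and 6q16.1, all of which were also control peaks. This subset was looked at after its values were seen. Among the 77 narrow members, 37.7% (26.9 to 49.4) had a combined peak and 12.99% (6.41 to 22.6) a control peak, and the intervals include the shares of all members.

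With both ligands, most of the 337 shared members stayed weak. Their combined peaks had a median of 12 reads (middle range 10 to 16) and a median score of 72.4, at percentile 34.2 of the combined list. Low-scoring Wnt3a regions with an Activin A peak had 22 combined reads (16 to 32), at percentile 70.5. Enrichment over background with both ligands was 0.526 times that after Wnt3a in the members (middle range 0.454 to 0.610), and 0.682 times (0.566 to 0.829) in those low-scoring regions. It was higher with both ligands than after Wnt3a in 2 of 337 members (0.593%) and in 735 of 7617 of the low-scoring regions (9.65%). Because the Wnt3a library was shallower, a Wnt3a peak needed a higher enrichment than a combined peak, and members were chosen on the Wnt3a value, so ratios below 1 are in large part set by the choice. Regions too weak for a combined peak are absent from each of these figures. Where a combined peak was present it covered a median of 92.7% of the bases of the Wnt3a peak, with 94 bases between the centres. The medians were 100% and 115 bases in the low-scoring regions with an Activin A peak.

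A small set was strong with both ligands. Of the 14437 combined regions in the top 25% of scores, 0.305% (44 regions) had no Activin A peak. Of these 44, 13 (29.5%, 16.8 to 45.2) were members, that is, had a Wnt3a peak. That share was below the background, as 11292 of the 14437 had a Wnt3a peak. Without regard to score, 17966 of the 56055 combined regions had a Wnt3a peak, and 21.0% (11753) had no Activin A peak. The 337 members made up 2.87% of those 11753 (2.57 to 3.19), again below the background. Most Wnt3a regions had an Activin A peak (18608 of 19801), so both low shares are in part set by the choice of regions without one. By combined score the strongest member was at 83776603 to 83777440 on chromosome 5, in band 5q14.3. It had 42 combined reads (score 383, percentile 92.1), 12 Wnt3a reads (score 105) and 15 control reads (score 90.2), and the nearest Activin A peak was 86309 bases away. It was thus in every list but that of Activin A, in which the rule allows no peak. The cause of that absence was not tested.

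The next by combined score was at 65269637 to 65270175 on chromosome 16 (16q21), with 36 combined reads, 7 Wnt3a reads and 19 control reads. It was followed by 31336383 to 31336935 on chromosome 8 (8p12), with 30 combined and 10 Wnt3a reads, and with its nearest control peak 239253 bases away. The other 10 strong members had 7 to 9 Wnt3a reads and combined scores of 180 to 235, and 2 of them, in 18q21.32 and 17q23.1, also had a control peak.

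**Figure D3:**
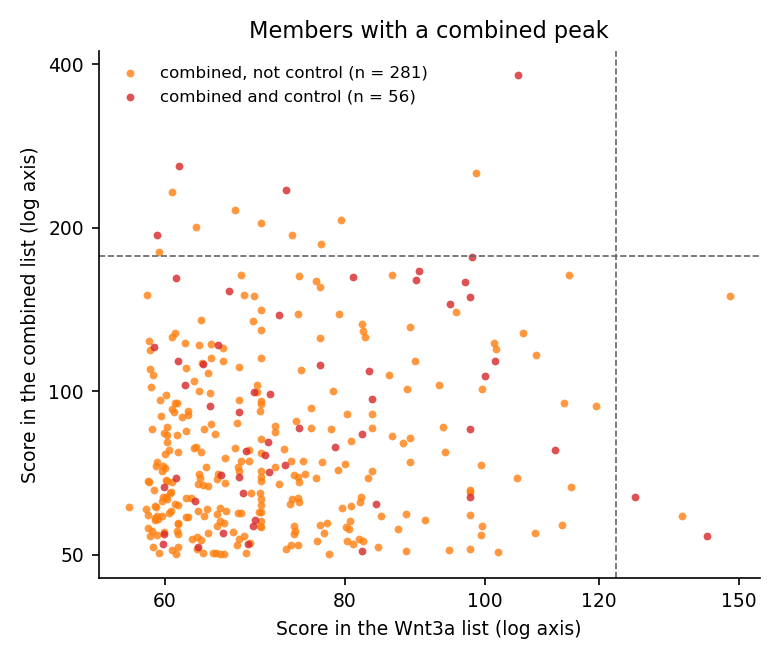
Score in the combined list against score in the Wnt3a list, on log axes, for the 337 members with a combined peak; orange, no control peak (281); red, control peak (56). Dashed lines mark the 75th percentile of each list: 13 members lie above the horizontal line, and none of them lies to the right of the vertical line.

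The 91 members with a control peak were weak in control too. Their control peaks had a median of 10 reads (middle range 9 to 11) and a median score of 61.1, against 13 reads in low-scoring Wnt3a regions with an Activin A peak. They made up 3.18% (2.57 to 3.90) of the 2858 control regions without an Activin A peak, which were 11.5% of all control regions. That 3.18% was below the background, as 13255 of the 24769 control regions had a Wnt3a peak. Most Wnt3a regions had an Activin A peak (18608 of 19801), so the low share is in part set by the choice of regions without one. Of the 91, 56 (61.5%, 50.8 to 71.6) also had a combined peak. The share was 25.5% (22.9 to 28.2) of the 1102 members without a control peak. A difference in this direction was general: over all Wnt3a regions the shares were 98.6% with a control peak and 74.8% without one.

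The highest control score among members, 121 from 18 reads, was at 23256791 to 23257224 on chromosome 1 (1p36.12), which had 7 Wnt3a and 15 combined reads. The region in 16q21 named above came second with a control score of 119 from 19 reads. Next was the region at 67976682 to 67977369 on chromosome 11 (11q13.2), with 16 control reads and 10 Wnt3a reads, and had no combined peak. In the class with control but without the combined list, the region at 78940548 to 78941078 on chromosome 8 (8q21.12) ranked behind those in Xp11.21 and 5q21.3, with 10 Wnt3a and 9 control reads. In the class missing from Activin A alone, 126613829 to 126614768 on chromosome 9 (9q33.3) ranked behind 2q22.2 and 6q16.1, with 13 Wnt3a, 14 combined and 11 control reads.

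The 4 classes can be set beside the regions with the same combined and control state but with an Activin A peak. Absence of Activin A was found for 821 of the 1652 Wnt3a regions with neither other peak (49.7%, 47.3 to 52.1) and for 35 of the 183 with a control peak only (19.1%, 13.7 to 25.6). It was found for 281 of 4894 with a combined peak only (5.74%, 5.11 to 6.43) and for 56 of 13072 with both (0.428%, 0.324 to 0.556). Wnt3a regions in the reverse state, with an Activin A peak and without a combined one, numbered 979 (4.94% of all Wnt3a regions). Members with a combined peak and no Activin A peak numbered 337 (1.70%). The lists differed in length, with 75585 Activin A peaks and 58382 combined peaks. Of all Wnt3a regions, 6.02% lacked an Activin A peak, and 90.7% had a combined peak.

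The distance from members to Activin A peaks covered a wide range. The nearest Activin A peak was at a median distance of 6838 bases (middle range 1553 to 21064). It lay within 100 bases for 32 members, within 1 kb for 237 (19.9%), within 10 kb for 696 (58.3%) and within 100 kb for 1151 (96.5%). A combined peak was present for 26.2% (20.7 to 32.2) within 1 kb, 25.9% (22.0 to 30.2) from 1 to 10 kb, 30.8% (26.6 to 35.2) from 10 to 100 kb and 38.1% (23.6 to 54.4) of the 42 beyond, and these intervals overlap. The Activin A peaks next to the 237 closest members were of middling rank, with a median percentile of 50.6, and 53 of them were in the top 25% of their list. The 821 members found after Wnt3a alone lay at a median of 9057 bases from the nearest combined peak and 23782 bases from the nearest control peak.

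**Figure D4:**
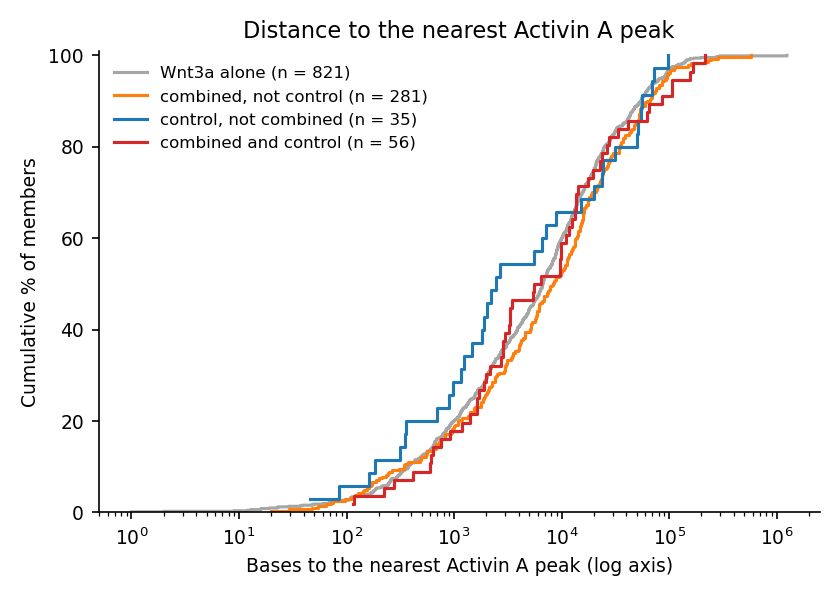
Cumulative percent of members against the bases to the nearest Activin A peak (log axis), for the 4 classes of members. The curve for the 35 members with the control peak only lies to the left of the others around its middle, with median distances of 6702 bases for Wnt3a alone, 8325 for the combined peak only, 6016 for both other peaks and 2452 for the control peak only.

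At the edge of the rule, the closest member, at 15650503 to 15651020 on chromosome 1 (1p36.21, 7 reads), was 1 base from an Activin A peak. Those at 112547073 to 112547547 on chromosome 12 (12q24.13) and 41880425 to 41881001 on chromosome 4 (4p13) were 2 and 9 bases away. Just outside it, the Wnt3a peaks at 15208793 to 15209312 on chromosome 6 (6p22.3) and 18063229 to 18063789 on chromosome 19 (19p13.11) overlapped an Activin A peak by 3 bases, and that at 45228485 to 45229046 on chromosome 2 (2p21) by 9. The weakest Activin A peaks that kept a Wnt3a region out had scores of 50.2, 50.7 and 50.7, in 14q24.3, 12q13.13 and 17q25.3. Activin A scores under 60 were found for 211 of the 18608 Wnt3a regions with an Activin A peak (1.13%). In the whole Activin A list a score of 59.6 was at percentile 10.1, and these 18608 regions had a median percentile of 85.5.

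By the rule used here, members were spread over the genome and were fewer on chromosome 19, which is rich in genes. They occurred in 553 of the 808 cytogenetic bands that had a Wnt3a region, and 1091 of the 1193 had no other member within 50 kb. Chromosome 19 held 36 members (3.02%, 2.12 to 4.15) and 6.00% of Wnt3a regions with an Activin A peak. At or below the median Wnt3a score, 6.90% (4.76 to 9.60) of its regions were members, below the 11.5% over all chromosomes. Chromosome 13, which is poor in genes, had the highest share of the autosomes, 37 of 236 regions (15.7%, 11.3 to 21.0), with an interval that includes 11.5%. Of the 24 chromosomes compared, with no correction for their number, chromosome 19 alone had an interval that did not include the overall share. The share of members on chromosome 19 depended on the definition of absence. It was 5.34% (4.85 to 5.87) with an overlap of 50% of each peak required. With no Activin A peak within 10 kb it was 1.01% (0.327 to 2.33). Other settings gave 2.62% to 4.08%, save 0 of 6 members with the top 25% of Wnt3a scores.

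Members were more frequent in the darkest staining bands, which hold few genes, than the other Wnt3a regions were. These bands held 234 members (19.6%, 17.4 to 22.0), against 15.4% (14.9 to 15.9) of Wnt3a regions with an Activin A peak. At or below the median score the shares were 19.1% (16.8 to 21.5) and 15.5% (14.7 to 16.3). By class the share was 18.1% (15.6 to 21.0) for Wnt3a alone, 22.1% (17.4 to 27.4) with the combined peak only, 17.1% (6.56 to 33.6) with the control peak only and 30.4% (18.8 to 44.1) with both, and these intervals overlap. Paler dark bands held 23.6% (21.2 to 26.1) of members and 25.1% of regions with an Activin A peak, and light bands 55.7% (52.9 to 58.6) and 58.7%. The light-band share of members was 60.4% (59.3 to 61.5) with the 50% overlap and 46.7% (42.2 to 51.2) at 10 kb. Other settings gave 53.3% to 57.5%, save 4 of 6 members with the top 25% of Wnt3a scores. The darkest bands were not counted under other settings. Centromeric, variable and stalk bands held 13 members (1.09%, 0.581 to 1.86), an interval that includes the 0.808% of all Wnt3a regions. No other Wnt3a peak lay within 50 kb for 39.6% of members and 33.3% of regions with an Activin A peak, no other control peak for 35.2% and 28.0%, and no other Activin A peak for 12.4% and 8.02%.

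**Figure D5:**
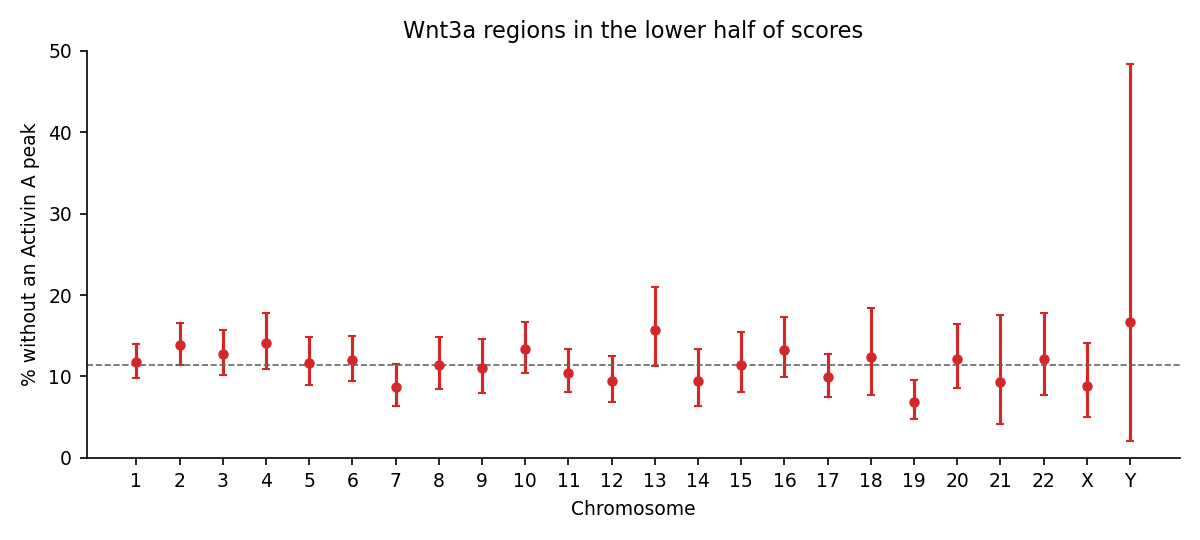
Percent of Wnt3a regions at or below the median Wnt3a score that had no Activin A peak, by chromosome, with exact 95% intervals; the dashed line is the share over all chromosomes, 11.5%. Chromosome 19 lies at 6.90%, below the line, and the interval for chromosome Y, with 12 regions, is the widest.

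Among the 94 bands with at least 50 Wnt3a regions, the share of members ran from 0% to 14.04% with a median of 4.96%. The band 19p13.3 had the most members, 11 of 184 Wnt3a regions (5.98%, 3.02 to 10.4). The neighbouring 19p13.2 had 1 of 160 (0.625%, 0.0158 to 3.43). The highest share was in 13q34, with 8 of 57 (14.04%, 6.26 to 25.8). These bands were picked as the extremes after their values were seen.

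Only 2 groups of 3 members lay within 50 kb of each other in turn. The first spans 174420883 to 174451584 on chromosome 4 (4q34.1), and its members, with 9, 7 and 8 Wnt3a reads in order of position, had neither a combined nor a control peak. Activin A peaks lay 897, 1552 and 845 bases from them. The second spans 47032938 to 47056643 on chromosome 10 (10q11.22), with 9, 7 and 7 Wnt3a reads. Its last 2 regions also had control peaks, with 9 and 15 reads, and none had a combined peak.

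The number of members depends on the weak peaks. With the Wnt3a list limited to its top 50% of scores there were 98 members, and with the top 25% there were 6. When every list was limited to its 21078 best peaks there were 6010. The Wnt3a list then kept all of its 21078 peaks and the Activin A list 21078 of its 75585. Wnt3a regions whose Activin A peaks were dropped became members by the rule. The part played by the shortening of the other lists was not tested.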

How the data were processed

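Chromatin accessibility was measured by ATAC-seq in 4 libraries of H1 cells, 1 per group. The tools named are CASAVA 1.8 and Bowtie2 2.2.2, with build hg19, per the submitters' processing notes. The peak caller, its settings and any removal of duplicate reads are not given in the sources used here. Each library has 1 peak list deposited by the authors, with coordinates and a score in 5 columns. All scores were at or above 50. Reads and read totals were not analysed here.

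Peaks sharing at least 1 base or lying end to end were merged across the lists. Each score was compared with -10 times the log10 of a Poisson tail probability with 1 fitted background mean per library, scaled to the peak width with a minimum of 400 bases. A score within 0.05 of that of a whole number was given that read number. This step was added after the data had been seen, and relative depth assumes that the caller used the same genome size for every library. The code was tested on simulated data. Enrichment is the read number over the background mean at that width. Bands came from the hg19 cytoband table of circlize 0.4.16 in R 4.3.3. Intervals were computed with scipy 1.17.1 in Python 3.11.15.

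The named regions are the 10 members with the highest Wnt3a score, the top 3 by Wnt3a score in each class, the top 3 by combined and by control score, the 3 nearest an Activin A peak, the 3 Wnt3a regions with the shortest overlap with one, and groups of at least 3 members within 50 kb of the next. The members and this rule were chosen with earlier results of these data known. The cell type could not be checked against marker genes, for want of a gene annotation on the same build. Nearby genes and sequences are not reported for the same reason.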

Additional observations from a re-analysis of the deposited data

How the results depend on the processing

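The count of members followed the definition of absence and the weak peaks. Against 1193 it was 2090 with 500 bases around each peak centre, 7623 with an overlap of 50% of each peak required, 6010 with lists of equal length, and 98 and 6 with Wnt3a peaks in the top 50% and top 25% of scores. A distance of 10 kb to any Activin A peak, chosen after seeing the data, left 497. The members found after Wnt3a alone, 821 as reported, numbered 1219 with peak centres, 3391 with the 50% overlap, 3928 with equal lists, 36 and 0 with the top 50% and top 25%, and 329 at 10 kb. The share with a combined peak, 28.2% as reported, was 32.5% with peak centres, 23.9% with equal lists, 56.1% and 66.7% with the top 50% and top 25%, and 31.4% at 10 kb. The share with a control peak, 7.63% as reported, was 21.9% with peak centres, 41.5% with the 50% overlap, 20.6% with equal lists, and 21.4% and 66.7% with the top 50% and top 25%. Of 41 such values, 20 stayed within 1.5 times a reported count or within the 95% interval of a reported share and 21 did not; the cause was not tested. No paired analysis was possible because there was a single library in every group. Settings for nearby genes and sequence were not run, since no hg19 reference was used here. Depth limits the precision: 752 members rest on 7 reads, with the Poisson interval of 2.81 to 14.4.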
